A study of Sorghum bicolor with 12 samples.

Results

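Dw1, Dw2 and Dw3 are height genes of sorghum (Sorghum bicolor), and their transcripts were followed in root libraries of a brassinosteroid receptor mutant and its wild-type sister line. The genes were chosen by identifier from published work: Sobic.009G229800 for Dw1 on chromosome 9, Sobic.006G067700 for Dw2 on chromosome 6 and Sobic.007G163800 for Dw3 on chromosome 7, with the chromosome read from the identifier. All 3 were listed among the 20818 identifiers of the deposited count table and none was absent. Messenger RNA had been sequenced from roots of mature plants in 12 libraries, 3 biological replicates in each of 4 groups. NIL-bri1-72 has a single-nucleotide change in the SbBRI1 receptor gene, in the region that codes for the outside of the cell, and NIL-WT-72 lacks it. Both lines are BC2F3 plants from an EMS mutagenesis that the submitters assumed to be near isogenic. Each line was either watered (control) or held at 30% of field capacity (drought). There is 1 line per genotype, so a difference between the lines cannot be told apart from other segments in which they may differ. The labels do not give the alleles that these lines carry at Dw1, Dw2 or Dw3. The root label was not checked against marker genes, because the identifiers could not be paired with gene names.

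Recessive alleles at the Dw loci shorten the stem internodes and were used to breed short grain sorghum. Dw1 encodes a membrane protein that has been reported in sorghum to promote brassinosteroid signalling by keeping the kinase BIN2, an inhibitor of that pathway, out of the nucleus. Dw2 encodes a protein kinase of the AGC family. Dw3 encodes an ABCB transporter that moves auxin out of cells, the sorghum counterpart of maize Brachytic2, and polar auxin transport also shapes root growth. Brassinosteroids are steroid hormones that drive cell elongation and are perceived by BRI1 at the plasma membrane, so Dw1 acts in the pathway whose receptor is altered in NIL-bri1-72. The stated aim of the series was to identify genes that SbBES1, a transcription factor of this pathway, controls early in drought. For the height genes this design asks whether their root transcripts differ with water supply, with the receptor genotype, or with the combination.

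All 3 genes had reads in every root library, and none passed the test in any comparison. Every identifier in the deposited table had a count of 8 or more in each library. Detection therefore follows from being listed, and shares of all genes refer to this set. Dw1 and Dw2 lay at nearly the same level in all 4 groups. Dw3 varied more: its mean was 1.27-fold higher in drought than in water in NIL-WT-72, with an adjusted p of 0.615, and 0.830 times the watered level in NIL-bri1-72, with an adjusted p of 0.810 (edgeR quasi-likelihood test, adjusted over all 20818 genes). The counts behind these values ran from 382 to 660 for Dw1, from 904 to 1461 for Dw2 and from 354 to 895 for Dw3, in libraries that held 18640601 to 33296273 counts in all. Levels are given as CPM, each count divided by the TMM-scaled library total and put on the usual per-million scale. At an unadjusted p below 0.05 (edgeR) there was 1 of the 21 gene and contrast combinations, the interaction of Dw3. Of all genes, 1.11% reached that p in the interaction and 14.9% in averaged drought. DESeq2 and limma voom called 0 of the 21 combinations. Over all genes DESeq2 called 305 for drought in NIL-WT-72, 202 for drought in NIL-bri1-72, 1023 for averaged drought, 4, 1 and 32 between the lines in water, in drought and on average, and 0 for the interaction. Whole roots were sequenced, so fewer cells of a type and less RNA per cell cannot be told apart. CPM is not corrected for transcript length, so levels are compared between libraries for 1 gene and not between genes.

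Dw1, the brassinosteroid-related member, passed the test in none of the 7 contrasts. Watered NIL-WT-72 roots had 15.4, 20.2 and 19.97 CPM in replicates 1, 2 and 3, and droughted NIL-WT-72 roots had 19.4, 17.9 and 18.1 CPM. Watered NIL-bri1-72 roots had 19.5, 17.3 and 20.4 CPM, and droughted NIL-bri1-72 roots had 20.7, 18.7 and 19.3 CPM. The 4 groups overlapped throughout, and the lowest of the 12 libraries was watered NIL-WT-72 replicate 1. From lowest to highest the group means were 18.5 ± 0.797 CPM for NIL-WT-72 in drought, 18.5 ± 2.68 CPM for NIL-WT-72 in water, 19.1 ± 1.61 CPM for NIL-bri1-72 in water and 19.6 ± 1.03 CPM for NIL-bri1-72 in drought (SD, n = 3 each). Each group mean lay within 1 SD of its neighbour in that order, while the means at the ends of the order, the droughted groups of the 2 lines, lay farther apart than the SD of either.

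Dw2, the AGC kinase gene, was the steadiest of the 3. Its level was 41.8, 47.8 and 42.1 CPM in watered NIL-WT-72 replicates 1, 2 and 3 and 39.9, 42.7 and 42.7 CPM in the droughted ones. In NIL-bri1-72 it was 41.7, 45.04 and 46.6 CPM in water and 46.7, 43.2 and 45.3 CPM in drought. The highest library exceeded the lowest by a ratio of 1.20, and watered and droughted replicates overlapped in both lines. The group means in rising order were 41.8 ± 1.61 CPM for NIL-WT-72 in drought, 43.9 ± 3.37 CPM for NIL-WT-72 in water, 44.4 ± 2.48 CPM for NIL-bri1-72 in water and 45.1 ± 1.73 CPM for NIL-bri1-72 in drought (SD, n = 3 each). Only the ends of that order separated: all 3 droughted NIL-bri1-72 libraries lay above all 3 droughted NIL-WT-72 libraries, by 43.2 against 42.7 CPM at the closest. Such a separation, with NIL-bri1-72 higher, was shown by 3.75% of all genes.

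Dw3, the auxin transporter gene, had the widest range. Watered NIL-WT-72 replicates 1, 2 and 3 had 26.1, 22.1 and 15.2 CPM, and droughted NIL-WT-72 replicates had 31.1, 24.1 and 25.1 CPM. Watered NIL-bri1-72 replicates lay close together at 25.3, 25.98 and 24.7 CPM, and droughted NIL-bri1-72 replicates had 22.01, 17.4 and 23.7 CPM. The droughted and watered libraries overlapped in NIL-WT-72, where watered replicate 1 stood above droughted replicates 2 and 3. In NIL-bri1-72 they did not overlap, and every droughted library was below every watered one, a separation seen for 6.42% of all genes. In falling order the group means were 26.8 ± 3.81 CPM for NIL-WT-72 in drought, 25.3 ± 0.653 CPM for NIL-bri1-72 in water, 21.1 ± 5.52 CPM for NIL-WT-72 in water and 21.02 ± 3.28 CPM for NIL-bri1-72 in drought (SD, n = 3 each). Neighbours in that order overlapped in their libraries; the pair in the middle did so because watered NIL-WT-72 replicate 1 exceeded the watered NIL-bri1-72 libraries.

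**Figure D1:**
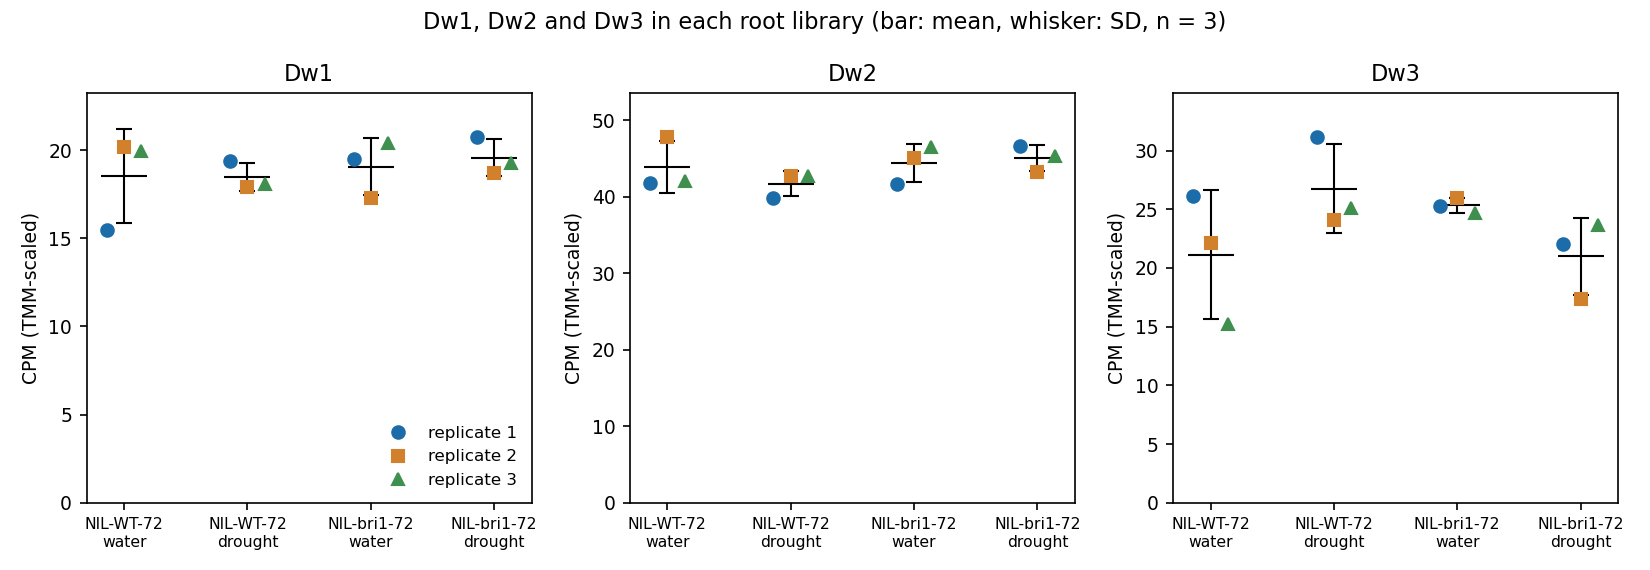
TMM-scaled CPM of Dw1, Dw2 and Dw3 in the 12 root libraries, with 1 point per library, bars for group means and whiskers for the SD (n = 3). Dw2 stays between 39.9 and 47.8 CPM, whereas Dw3 runs from 15.2 to 31.1 CPM, both of these in NIL-WT-72.

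Drought was compared with water in each line first. In NIL-WT-72, 0 of the 3 genes were called, where 0.0144% of all genes tested were (edgeR, adjusted p below 0.05). The log2 fold change of Dw1 was -0.0055 (SE 0.12, 95% interval from -0.27 to 0.26, edgeR adjusted p = 0.995), and that of Dw2 was -0.072 (SE 0.083, interval from -0.25 to 0.11, edgeR adjusted p = 0.847). Dw3 had 0.34 (SE 0.19, interval from -0.071 to 0.75, edgeR adjusted p = 0.615). For Dw1 the interval spans 0.829 to 1.20 in fold terms and for Dw2 0.838 to 1.08, while for Dw3 it reaches a 1.68-fold higher level in drought. The Dw3 interval was the widest of the 3. The Dw2 value was -0.0074 without watered NIL-WT-72 replicate 2 and -0.11 without watered replicate 1. Without watered NIL-WT-72 replicate 1 the Dw3 log2 fold change was 0.52, and without watered replicate 3 it was 0.15.

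In NIL-bri1-72, 0 of the 3 genes were called and 0% of all genes were. Dw1 had a log2 fold change of 0.038 (SE 0.12, interval from -0.22 to 0.30, edgeR adjusted p = 0.969) and Dw2 of 0.021 (SE 0.083, interval from -0.16 to 0.20, edgeR adjusted p = 0.977). For Dw3 the log2 fold change was -0.27 (SE 0.19, interval from -0.68 to 0.14, edgeR adjusted p = 0.810). Dw3 was the 1 member whose replicates did not overlap in this comparison, with drought lower, a separation seen for 6.42% of all genes. Its interval allows levels in drought from 0.625 to 1.10 times those in water. It was -0.15 without droughted NIL-bri1-72 replicate 2 and -0.36 without droughted NIL-bri1-72 replicate 3, and it was negative with each of the 12 libraries left out.

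Averaged over both lines, drought and water gave close levels for each gene. The log2 fold change was 0.016 for Dw1 (interval from -0.17 to 0.20), -0.026 for Dw2 (interval from -0.15 to 0.10) and 0.036 for Dw3 (interval from -0.25 to 0.33), with edgeR adjusted p of 0.956, 0.889 and 0.938. None of the 3 was called, against 1.28% of all genes. In fold terms the intervals span 0.889 to 1.15 for Dw1, 0.899 to 1.07 for Dw2 and 0.838 to 1.25 for Dw3. An exact permutation test of the mean log2 CPM, with regimes exchanged within lines over 400 arrangements, gave two-sided p of 0.785, 0.635 and 0.835, where 0.005 is the smallest possible. For Dw3 the average combines a higher mean in drought in NIL-WT-72 with a lower one in NIL-bri1-72.

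The lines were then compared within each regime, and these contrasts use the same libraries as the drought contrasts. In water, NIL-bri1-72 against NIL-WT-72 gave 0 of 3 calls and 0% of all genes. The log2 fold changes were 0.041 for Dw1 (interval from -0.22 to 0.30), 0.017 for Dw2 (interval from -0.16 to 0.20) and 0.26 for Dw3 (interval from -0.15 to 0.67), with edgeR adjusted p of 0.980, 0.991 and 0.898. The replicates of the lines overlapped for all 3 genes. For Dw3 the difference came with a wide spread on the wild-type side, 26.1% of the mean as a coefficient of variation in watered NIL-WT-72 against 2.58% in watered NIL-bri1-72. The 2.58% lay below the 3.76% that counting error alone gives for Dw3 at the mean count of watered NIL-bri1-72. The Dw3 log2 fold change between the lines in water was 0.44 without watered NIL-WT-72 replicate 1 and 0.065 without watered NIL-WT-72 replicate 3.

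In drought, 0 of 3 genes were again called, with 0% of all genes. Dw1 had a log2 fold change of 0.084 (SE 0.12, interval from -0.18 to 0.35), and its replicates overlapped. Dw2 had 0.11 (SE 0.083, interval from -0.071 to 0.29) and was higher in every NIL-bri1-72 library, a separation shown by 3.75% of all genes. Dw3 had -0.35 (SE 0.19, interval from -0.76 to 0.061) and was lower in every NIL-bri1-72 library, at 23.7 CPM or less against 24.1 CPM or more, a separation shown by 2.94% of all genes. The edgeR adjusted p was 1.00 for each of the 3 genes. Without droughted NIL-WT-72 replicate 1 or without droughted NIL-bri1-72 replicate 2 the Dw3 value was -0.23.

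Averaged over both regimes, Dw1 and Dw2 had log2 fold changes of 0.062 (interval from -0.12 to 0.25) and 0.064 (interval from -0.065 to 0.19) in NIL-bri1-72 against NIL-WT-72, and Dw3 had -0.044 (interval from -0.33 to 0.25). The edgeR adjusted p were 0.895, 0.833 and 0.956, and 0 of 3 genes were called, as were 0% of all genes. The intervals leave room for up to 1.19-fold more Dw1 and 1.14-fold more Dw2 in NIL-bri1-72. The exact permutation test, with lines exchanged within regimes, gave two-sided p of 0.415, 0.180 and 0.880. The lower end of the Dw1 interval was 0.918 times the wild-type level.

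**Figure D2:**
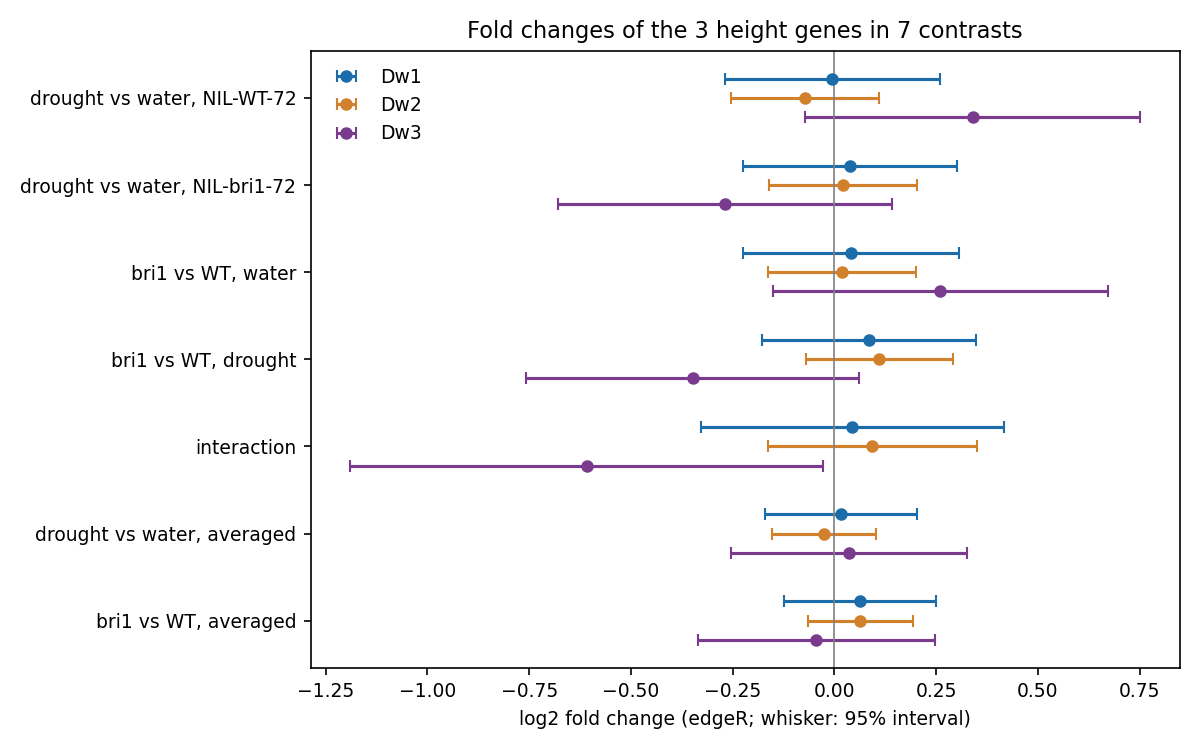
Log2 fold changes of the 3 genes in the 7 contrasts, with points for the edgeR estimates and whiskers for their 95% intervals, where bri1 stands for NIL-bri1-72 and WT for NIL-WT-72. The intervals of Dw1 and Dw2 include 0 in every contrast, and that of Dw3 misses 0 in the interaction alone, from -1.19 to -0.028, before adjustment for the number of genes tested.

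Whether drought acted alike in both lines was asked by the interaction, the drought effect in NIL-bri1-72 minus that in NIL-WT-72. It was 0.044 for Dw1 (SE 0.17, interval from -0.33 to 0.42) and 0.093 for Dw2 (SE 0.12, interval from -0.16 to 0.35), with an edgeR adjusted p of 1.00 for each. For Dw3 it was -0.61 (SE 0.26, interval from -1.19 to -0.028), with an unadjusted p of 0.0415 and an adjusted p of 1.00 (edgeR). None of the 3 was called, as were 0% of all genes. An unadjusted p below 0.05 was reached by 1.11% of all genes, 232 of 20818, and Dw3 ranked at position 171 by p. A larger absolute interaction was found for 5.75% of all genes. An exact permutation test for Dw3, with lines exchanged within regimes, gave a difference of -0.65 on the log2 CPM scale and a two-sided p of 0.0300 over 400 arrangements, without adjustment for the 9 such tests run on the 3 genes. For Dw1 and Dw2 the same test gave 0.805 and 0.355. Exchanging lines within regimes is exact only if the lines do not differ in either regime, so the test does not isolate the interaction. This permutation test of the interaction was added after the edgeR value for Dw3 had been seen, so it is not independent evidence.

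The Dw3 interaction kept its negative sign with each library left out, between -0.79 without watered NIL-WT-72 replicate 1 and -0.42 without watered NIL-WT-72 replicate 3. The exact permutation p of that interaction ran from 0.00500 to 0.0850 over the same omissions. It was 0.05 or more without any 1 of 7 libraries, which were watered NIL-WT-72 replicate 3, droughted NIL-WT-72 replicates 1 and 3, the 3 watered NIL-bri1-72 replicates and droughted NIL-bri1-72 replicate 2. Watered NIL-WT-72 replicate 1 and droughted NIL-WT-72 replicate 3 stand apart on the second principal component of log2 CPM. They lie at 61.8 and 23.2 on it, where the other 10 lie between -19.4 and 0.634. They were picked from earlier results of these data. Their root mean square deviations from the group means were 0.396 and 0.271 on the log2 scale, against 0.183 to 0.339 in the others. By that measure droughted NIL-WT-72 replicate 3 lay within the range of the others. Without both libraries the Dw3 interaction was -0.84, with an edgeR adjusted p of 0.999.

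Ratios of counts within a library do not depend on library scaling, and they were formed for the 3 pairs of genes after the data had been seen. Since the ratio also holds the lengths of both transcripts, only its change between libraries is read. The count of Dw2 over that of Dw1 was 2.39 ± 0.299 and 2.27 ± 0.181 in watered and droughted NIL-WT-72 and 2.34 ± 0.241 and 2.30 ± 0.0508 in watered and droughted NIL-bri1-72 (SD, n = 3 each). The libraries of all 4 groups overlapped in this ratio. The mean of droughted NIL-bri1-72 differed from that of watered NIL-WT-72 by more than its own small SD, but by less than the SD of watered NIL-WT-72. The count of Dw3 over that of Dw2 was 0.625, 0.462 and 0.361 in watered NIL-WT-72 replicates 1, 2 and 3 and 0.780, 0.565 and 0.588 in the droughted ones. In NIL-bri1-72 it was 0.607, 0.577 and 0.530 in water and 0.472, 0.402 and 0.522 in drought. Droughted NIL-bri1-72 libraries had the lower ratio in each case against their watered counterparts and against droughted NIL-WT-72, whereas the ratios of NIL-WT-72 overlapped between regimes. The CPM of Dw3 separated in both of these comparisons too, so the ratio restates that and is not independent evidence. How often other gene pairs separate in this way was not computed. The count of Dw3 over that of Dw1 had means of 1.18 ± 0.471 and 1.45 ± 0.141 in watered and droughted NIL-WT-72 and of 1.34 ± 0.151 and 1.07 ± 0.151 in watered and droughted NIL-bri1-72 (SD, n = 3 each). Against Dw1 the regimes overlapped in NIL-bri1-72 too, since droughted replicate 3 at 1.23 exceeded watered replicate 3 at 1.21.

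**Figure D3:**
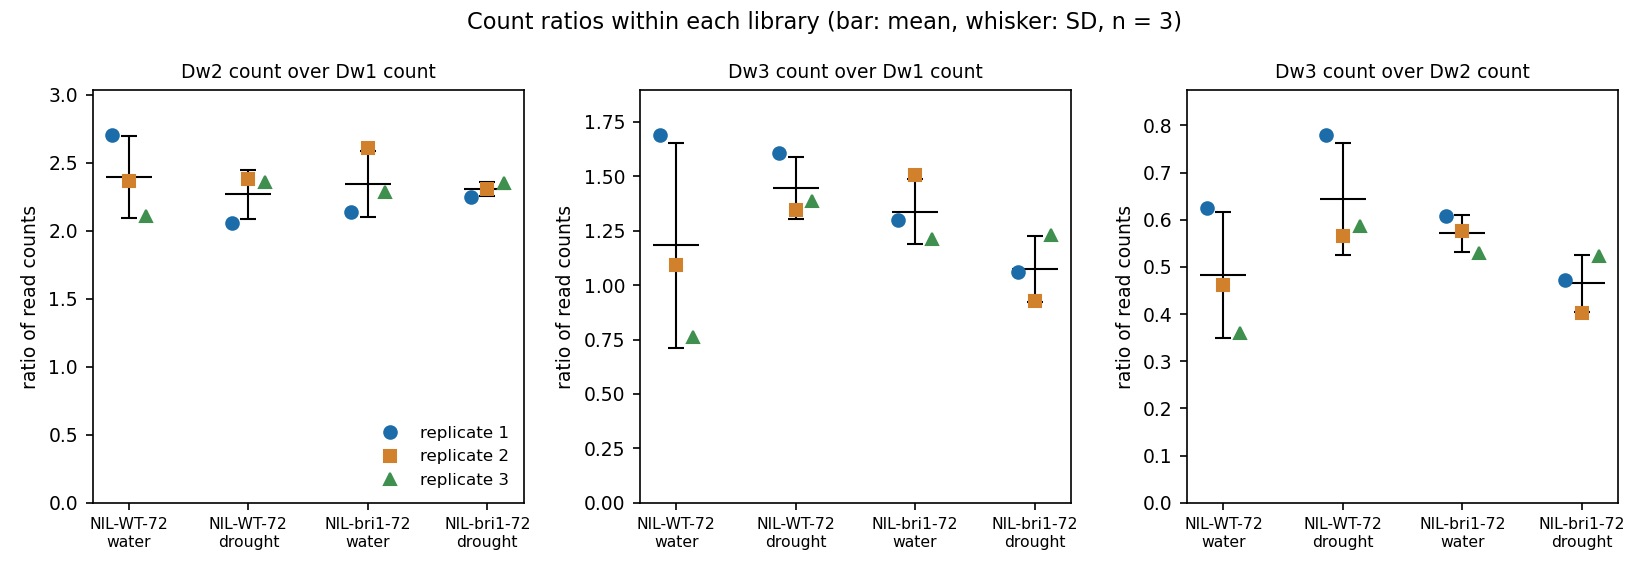
Ratios of the read counts of 2 height genes within each of the 12 libraries, with 1 point per library, bars for group means and whiskers for the SD (n = 3). The Dw2 over Dw1 ratio has group means from 2.27 to 2.39, while the Dw3 over Dw2 ratio is lowest on average in droughted NIL-bri1-72, at 0.465.

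The replicate spread of each gene was set against counting error. Counting error alone gives a coefficient of variation of 4.18% to 4.91% for Dw1 at its group mean counts, and the observed CPM varied by 4.32% to 14.4% within groups. For Dw2 the figures were 2.75% to 3.18% from counting and 3.84% to 7.67% observed. Dw3 had 3.59% to 4.56% from counting and 2.58% to 26.1% observed. These limits cover counting error only. The SD of log2 CPM within groups was 0.13 for Dw1, 0.078 for Dw2 and 0.25 for Dw3, where the median gene had 0.21. A smaller SD was found for 23.4% of all genes in the case of Dw1, 3.78% in that of Dw2 and 58.5% in that of Dw3. This spread also depends on read number, and 51.3%, 72.2% and 56.7% of all genes had a lower mean level on that scale than Dw1, Dw2 and Dw3.

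**Figure D4:**
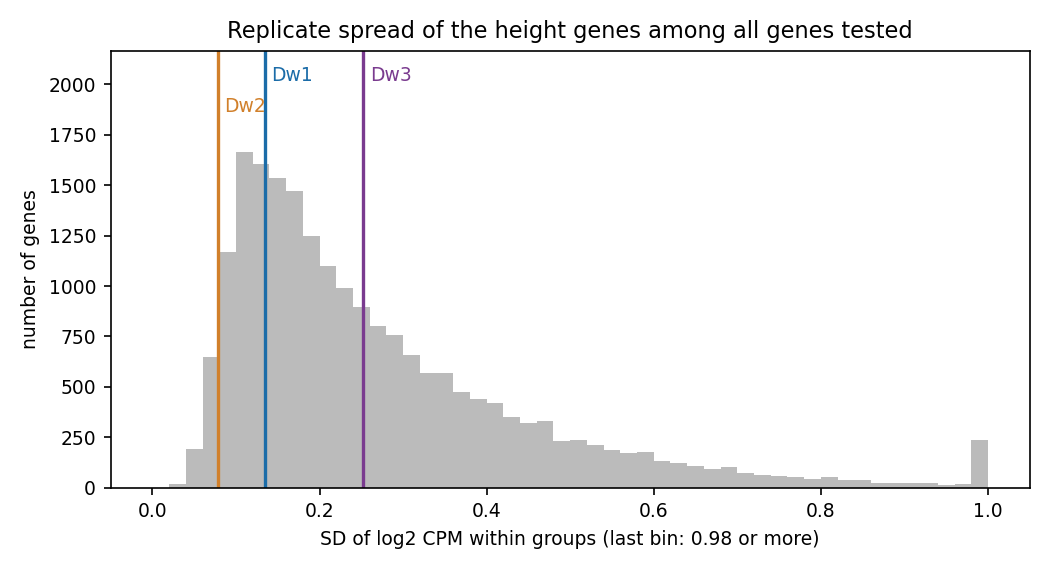
Distribution over 20818 genes of the SD of log2 CPM within the 4 groups, with lines at Dw1, Dw2 and Dw3. Dw2 lies in the low tail at 0.078, Dw1 at 0.13 and Dw3 at 0.25, close to the median gene at 0.21.

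The largest deviation of Dw1 from a group mean and a large one of Dw3 fell in the same library. This was watered NIL-WT-72 replicate 1, one of the libraries that stand apart on the second principal component. There Dw1 was 0.25 below its group mean on the log2 scale and Dw3 was 0.34 above it, while Dw2 was 0.068 below. In watered NIL-WT-72 replicate 3 Dw3 was 0.44 below its group mean, and Dw1 was 0.12 above. Over all 12 libraries Dw1 and Dw3 deviated in the same direction in 7.

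Whether the levels of the 3 genes move together was examined over the 12 libraries in 3 pairs. Dw1 and Dw2 had Pearson r = 0.401 (permutation p = 0.200, adjusted over the pairs 0.495) and Spearman rho = 0.427 (permutation p = 0.170, adjusted 0.170). Without the 2 libraries farthest from the median of Dw1, r was 0.525. Dw1 and Dw3 had r = -0.302 (permutation p = 0.330, adjusted 0.495) and rho = -0.476 (permutation p = 0.122, adjusted 0.170), and r was -0.143 without the 2 farthest libraries. Dw2 and Dw3 had r = -0.172 (permutation p = 0.595, adjusted 0.595) and rho = -0.503 (permutation p = 0.0989, adjusted 0.170), with r = -0.123 without the 2 farthest. Within the 6 watered and the 6 droughted libraries r was 0.422 and 0.491 for Dw1 and Dw2, -0.465 and -0.0051 for Dw1 and Dw3, and 0.159 and -0.548 for Dw2 and Dw3 (exact permutation p between 0.211 and 0.997). For Dw2 and Dw3 rho was -0.429 in water and -0.771 in drought (exact permutation p = 0.419 and 0.103), so the sign of r differed between regimes and that of rho did not. No pair passed. With library totals in place of TMM, Dw1 and Dw2 had r = 0.585 (permutation p = 0.0428, not adjusted). For deviations from the group means r was 0.341 for Dw1 and Dw2 and -0.328 for Dw1 and Dw3. For Dw2 and Dw3 it was 0.075, so the negative sign over the 12 libraries was not kept within groups. These values on deviations are given without a test.

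The identifiers whose log2 CPM followed each height gene most closely over the 12 libraries were taken from all other 20817, so a high r is partly a product of that choice. They are given without a test. For Dw1 these were Sobic.002G180501 on chromosome 2 and Sobic.010G004701 on chromosome 10, each at r = 0.877. Those nearest to Dw2 were Sobic.003G235200 on chromosome 3 with r = 0.877 and Sobic.001G080600 on chromosome 1 with r = 0.854. Dw3 was followed by Sobic.006G104900 on chromosome 6 with r = 0.937 and Sobic.008G035666 on chromosome 8 with r = 0.919. Identifiers with r above 0.9 numbered 0 for Dw1, 0 for Dw2 and 8 for Dw3. Sobic.006G104900 ran from 20.1 to 30.04 CPM, and its deviations from the group means followed those of Dw3 with r = 0.964. In the same ranking by likeness to Dw1, Dw2 took position 2782 and Dw3 position 16262.

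The neighbourhood of each gene was described by the 10 listed identifiers on either side, ordered by number. By edgeR 0 of these 20 identifiers per gene were called in any of the 7 contrasts. In averaged drought 4 of 20 for Dw1, 2 of 20 for Dw2 and 4 of 20 for Dw3 had an unadjusted p below 0.05 by edgeR, as did 14.9% of all genes, and in each other contrast at most 2 of 20 did. DESeq2 called at most 1 of 20 in a contrast. In the interaction the 20 neighbours of Dw3, from Sobic.007G162300 to Sobic.007G165500, had log2 values from -0.56 to 1.32 with a median of -0.031, and 0 of them lay below the -0.61 of Dw3. The median over all genes was 0.012, and 5.75% of all genes had a larger absolute interaction than Dw3, so few of any 20 would lie below it. In the other contrasts 2 to 19 of 20 lay below Dw3. For the lines compared in drought, the neighbours of Dw2, from Sobic.006G066650 to Sobic.006G069300, had a median of -0.090, and 19 of 20 lay below the 0.11 of Dw2. The median over all genes was 0.0027, and 48.7% of all genes had a larger absolute change than Dw2. In the other contrasts 6 to 17 of 20 lay below Dw2. The neighbours of Dw1, from Sobic.009G228500 to Sobic.009G231500, had a median of 0.032 for the lines compared in drought, and 12 of 20 lay below Dw1.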

How the data were processed

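The values are raw counts, deposited by the authors as a single table with a row for each identifier. The submitters' processing notes name Trimmomatic 0.38, HISAT2 2.1.0, FastQC 0.11.2 and also featureCounts 1.6.2. No source used here gives their settings, the build or whether strand was used in counting, so antisense reads may be included, and reads shared with near-identical ABCB or kinase genes may be split. The table lists no identifier with a count under 8. The number of columns outside the 12 samples is 0.

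Groups and replicate numbers come from the sample titles. All 20818 genes passed filterByExpr and were fitted with edgeR 4.0.16 (R 4.3.3; TMM, quasi-likelihood, 4 group means, 12 libraries, no block). Benjamini-Hochberg adjusted p below 0.05 over all genes was called. SE is the absolute log2 fold change over the square root of F, and 95% intervals use the fit's degrees of freedom. Log2 CPM used a prior count of 2. Correlations used 100000 resamples. DESeq2 1.42.0 and limma 3.58.1 were alternatives. The fit was also run on simulated data with known changes, and the outcome is not given here.

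Named besides the members were the 2 most alike identifiers per member. The members and lists were chosen with earlier results of these data known. Of the identifiers, 0 matched the RefSeq table, so lists by function, sequences and gene lengths were not used here. Same-numbered watered and droughted libraries deviated together in NIL-bri1-72 (correlations 0.360, 0.190 and 0.125, each over 0.1), which counts as paired. In NIL-WT-72 the correlations were 0.094, 0.219 and 0.270, of which the first fell just short of 0.1. Same-numbered libraries of different lines did not count as paired. The main fit and the permutation tests used no pairing.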

Additional observations from a re-analysis of the deposited data

Results flagged for a closer look

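The interaction of drought and line for Dw3 was picked out by an exact permutation test, with -0.65 on the log2 CPM scale (p = 0.0300, two-sided). The test was added after the edgeR interaction of Dw3 had been seen on the same libraries, so it restates that value and is not evidence that the response differs. It is 1 of 9 such tests on the 3 genes, and its p is not adjusted. It is exact only if the lines do not differ in either regime. In 7 of 14 alternatives the p was 0.05 or more. Of the droughted libraries, 3 of 3 lay below the watered ones in NIL-bri1-72, a separation seen for 6.42% of all genes, while the regimes overlapped in NIL-WT-72. In the fit over all genes the adjusted p was 1.00 (edgeR), so the interaction failed the correction. Groups of 3 libraries were not searched for single outlying values.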

How the results depend on the processing

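Over 507 alternative values of the 21 log2 fold changes, 0 had an adjusted p below 0.05. The 507 include the runs with no filter, which repeat the main fit. In the main fit the lowest edgeR adjusted p of any gene was 0.99999 for the interaction and 0.99998 for the lines in drought. No gene came near a call there. The sign turned in 39 of the 507 values, for main values of at most 0.062 in size, so the direction of these small values is not fixed. For Dw1, drought in NIL-WT-72 became 0.025 with upper quartile scaling, 0.014 with voom and 0.0031 with the replicate block within the libraries compared. With voom quality weights the lines in water differed by -0.035 for Dw1 and -0.076 for Dw2, and averaged drought was -0.020 for Dw1. The next values leave out the 2 NIL-WT-72 libraries that stand apart on the second principal component. The lines in water then differed by -0.077 for Dw1 and -0.018 for Dw2, and averaged drought was -0.040 for Dw1. The averaged lines differed by -0.0044 for Dw1 and 0.024 for Dw3. The cause of these turns was not tested.

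With each library left out in turn, Dw1 ranged from -0.12 to 0.060 for drought in NIL-WT-72, from -0.027 to 0.090 for drought in NIL-bri1-72, from -0.076 to 0.11 between the lines in water, from -0.022 to 0.16 for the interaction and from -0.042 to 0.049 for averaged drought. Dw2 ranged from -0.11 to -0.0074 for drought in NIL-WT-72, from 0.028 to 0.13 for the interaction, from -0.026 to 0.055 for drought in NIL-bri1-72, from -0.017 to 0.082 between the lines in water and from -0.048 to 0.0066 for averaged drought. Dw3 ranged from -0.062 to 0.13 for averaged drought and from -0.14 to 0.047 between the averaged lines. The differences in mean log2 CPM behind the permutation tests ranged from -0.041 to 0.056 for Dw1, -0.047 to 0.0065 for Dw2 and -0.067 to 0.13 for Dw3 in averaged drought. Between the averaged lines they ranged from 0.047 to 0.096 for Dw2, where 1 omission, of watered NIL-WT-72 replicate 2, gave an exact permutation p of 0.0300, and from -0.14 to 0.057 for Dw3. For the interaction they ranged from -0.032 to 0.16 for Dw1 and from -0.82 to -0.43 for Dw3. The r of Dw2 and Dw3 ranged from -0.456 to 0.111, and that of Dw1 and Dw2 was 0.585 with library totals.

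Over all genes, the 3 calls for drought in NIL-WT-72 became 305 by DESeq2, 1 by voom, 309 with quality weights, 1 with only the libraries compared, 27 with the replicate block within them, 200 without the 2 libraries and 0 to 55 with each library left out. For drought in NIL-bri1-72, 0 became 202 by DESeq2, 1 with quality weights, 4 with only the libraries compared, 16 without the 2 libraries and 0 to 14 with each left out. For averaged drought, 266 became 1023, 997 and 933 by DESeq2, with quality weights and without the 2 libraries, and 41 to 695 with each left out. Between the lines DESeq2 called 4 in water, 1 in drought and 32 on average, where edgeR called 0 in each. With no filter the results were identical, since all genes passed. With the replicate block the Dw3 interaction was -0.62 over 12 libraries and drought in NIL-bri1-72 was -0.28 within its libraries (edgeR adjusted p = 1.00 and 0.547), and the block changed no call of the 3 genes. The counts behind the 3 genes were 354 or more per library, and the coefficient of variation within a group was 2.58% to 26.1% against 2.75% to 4.91% from counting.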
